A study of Mus musculus with 6 samples.

Results

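In the spleens of mice fed garlic powder, 58 genes gave a lower array signal in each of 3 mice than in any of 3 control mice, by 1.5-fold or more between the group means. They were taken from 18193 genes, each represented by the probe set (the group of short probes that reads 1 transcript) with the highest mean log2 signal among probe sets assigned to that gene alone. Of these, 9795 genes had a mean signal of at least 200 over the 6 arrays, and a member had to reach that minimum, to have all 3 garlic values under all 3 cellulose values, and to have a cellulose mean over garlic mean (called the ratio) of at least 1.5. Cirbp met the same conditions with a ratio of 2.70 and was left out. The diet contrast itself chose these genes, so their differences between the groups are a description and carry no test.

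The mice were male C57BL/6J animals that were 8 weeks old at the start and ate their diet for 15 weeks. Both groups received the same purified casein, sucrose and cornstarch diet with soybean oil, minerals, vitamins, choline and L-cysteine. It was supplemented with 4% cellulose, a plant fiber, in the control group and with 4% lyophilized raw garlic powder in the garlic group. Total RNA of the whole spleen of each mouse was hybridized to 1 Affymetrix array, giving 3 cellulose and 3 garlic arrays.

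The spleen joins a white pulp, where B and T lymphocytes meet antigen carried by dendritic cells, with a red pulp, where macrophages clear old red cells and where, in mice, red cells are also made. A B cell that meets its antigen may enter a germinal center, in which B cells divide and are selected, and may then become a plasma cell that secretes antibody. RNA of a whole spleen mixes all of these cells, so fewer cells of a type and less RNA per cell cannot be told apart. Of the genes listed here as markers of B cells, T cells and red pulp macrophages and present on the array, 16 of 16, 18 of 19 and 20 of 21 had a mean signal of 200 or more.

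The condition that the groups did not overlap was met by many genes that were lower by less than 1.5-fold. All 3 garlic values lay under all 3 cellulose values in 1082 of the 9795 genes (11.0%), and all 3 lay above in 1007 (10.3%). With the ratio of 1.5 added, 59 genes, Cirbp among them, were lower (0.602%), while the same rule turned round found 226 genes higher (2.31%). The members' ratios ran from 1.501 to 2.84 with a median of 1.58, and 32 of the 58 were under 1.6, so that most lay close to the threshold. Their mean signals ran from 200.1 to 1779, with a median of 313 against 906 over all 9795 genes. Signals of different probe sets are not on 1 scale of transcript number, and these values say only that 45 of the 58 members were read at under 500, near the minimum.

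**Figure D1:**
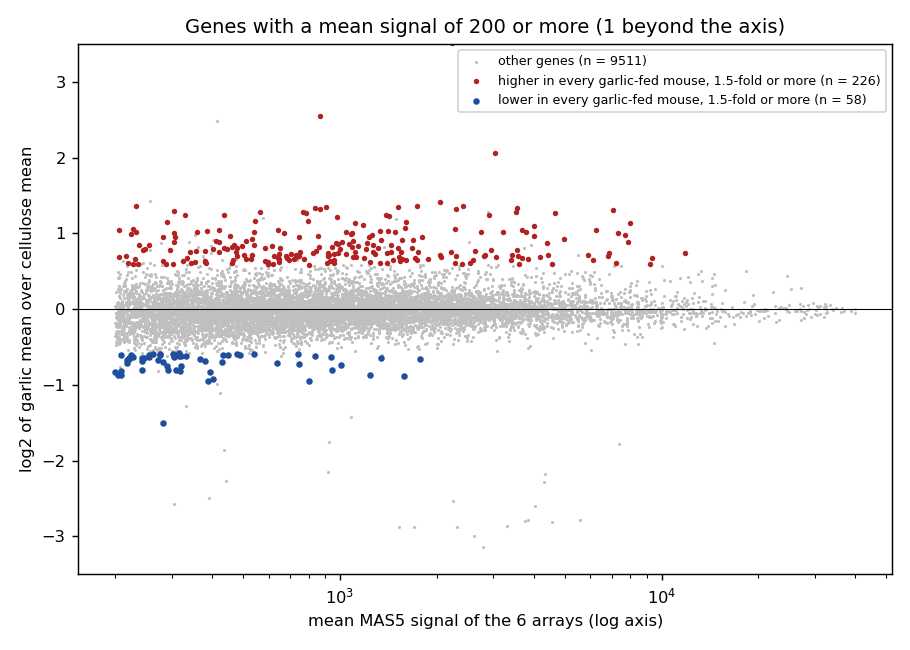
Each point is 1 of the 9795 genes with a mean MAS5 signal of 200 or more, with that mean on a log x axis and the log2 of garlic mean over cellulose mean on the y axis. The 58 members (blue) lie mostly at the dim end with ratios near the threshold, and the 226 genes of the rule turned round (red) spread over a wider range of signal; the gray points far below 0 overlap between the groups or belong to Cirbp, and 1 gene lies beyond the axis.

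Some genes missed the rule narrowly. At the ratio threshold, Zfp182 was inside at 1.501 and Notch4 outside at 1.499. At the signal minimum, Glmn was inside with a mean of 200.1 and Sh2b2 outside with 192.5. For the overlap, the lowest cellulose value of Dpy19l3 was 1.02 times its highest garlic value, whereas for Nupr1, with a ratio of 1.53, cellulose mouse 2 read 556.4 and garlic mouse 2 read 559.5. A further 384 genes under the signal minimum met the other conditions, and 33 of the 92 genes with sufficient signal and ratio failed because the groups overlapped.

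Members did not pass an adjusted threshold in the main fit over all 6 arrays. Fitted with limma over all probe sets above a signal filter, 0 of 58 members had an adjusted p under 0.05 (lowest adjusted p = 0.0558, Zc3h6), where the share of all 12262 genes tested that were lower past it was 0.00816%, a single gene, Cirbp. All 58 had an unadjusted limma p under 0.05, where 6.24% of all genes tested were lower and 6.89% higher at that level, and the one-way analysis of variance that the study's methods name gave 0 members after adjustment and 48 before it. The call changed with the setting: 1 member passed limma's adjusted threshold under median centering, 3 without garlic mouse 1 and 4 without garlic mouse 3. It was 9 members when mice of the same replicate number were fitted as a block. These fits use the contrast that chose the members and are given only as a limit.

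Membership depended on single mice and on scaling. Leaving out 1 array at a time gave lists of 45 to 103 genes (103 without garlic mouse 1, 94 without garlic mouse 3 and 91 without cellulose mouse 2), and 15 members met the rule in all 6 of these repeats. Among them were Clec2d, Eaf2, Igkv4-68, Sdc1, Cpne5, P2ry10b, Egr2, Zc3h6 and Trim5. Of the 15, 10 also met it under quantile normalization, median centering, geometric means and averaged probe sets and without the array of most pancreatic signal in each group, among them Clec2d, Eaf2, Igkv4-68, Sdc1 and Egr2. Centering each array on its median kept 29 of the 58. The array medians were 127.9 to 132.2 in the cellulose group and 119.7 to 128.8 in the garlic group, at a trimmed mean signal of 500 on every array.

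Lymphocyte and antigen-presenting cell genes were the largest class as sorted here, with 11 members and ratios of 1.51 to 1.94. The classes were assigned by hand from general knowledge of each gene after the members were known. How many of all 9795 genes would fall in each class was not counted, so class size is not a result. The lists of B, T and dendritic cells, with 16, 18 and 12 genes at sufficient signal, held 0 members, and the plasma cell list 1 of 11. The secreted factors Ccl8 and Tnfsf13b could also have been sorted with the secreted class. Clec2d, a lectin-like surface protein recognized by an inhibitory receptor of natural killer cells, read 541.5, 533 and 469 in cellulose mice 1 to 3 and 323, 318 and 155 in garlic mice 1 to 3. Garlic mouse 3 was far under the other two garlic mice, and the ratio was 1.94 (514 ± 39.8 against 265 ± 95.4, SD, n = 3 mice per group, as for every ± value). H2-Eb2, a beta chain of the class II molecules that present peptides to helper T cells, gave 1001.5, 1098 and 943 in cellulose mice 1 to 3 and 799.6, 631.5 and 545 in garlic mice 1 to 3. Garlic mouse 3 was lowest and the cellulose mice lay close together, and the ratio was 1.54. Ly75, an endocytic receptor of dendritic cells, gave 519, 560.5 and 686.5 in cellulose mice 1 to 3 and 344, 326 and 487 in garlic mice 1 to 3, with the third mouse highest in both groups and a ratio of 1.53.

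Genes of antibody-forming cells were among the members of this class. Sdc1, the heparan sulfate proteoglycan syndecan-1 that marks plasma cells, read 1515, 1169 and 924.5 in the cellulose mice and 480.2, 718.5 and 859 in the garlic mice. The closest values of the groups were cellulose mouse 3 and garlic mouse 3, and the ratio was 1.75 (1203 ± 297 against 686 ± 192). Eaf2, a transcription elongation factor known from germinal center B cells, read 1227, 950.2 and 984 in cellulose mice 1 to 3 and 353, 576 and 710.3 in garlic mice 1 to 3. As with Sdc1, garlic mouse 1 was lowest and garlic mouse 3 nearest to the controls, at a ratio of 1.93 (1054 ± 151 against 546 ± 180.3). Igkv4-68, a variable segment of the immunoglobulin kappa light chain, gave 1808, 1658 and 2679.5 in cellulose mice 1 to 3 and 859.9, 979 and 1501 in garlic mice 1 to 3. The third mouse was highest in each group, and the ratio was 1.84 (2049 ± 552 against 1113 ± 341).

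Tnfsf13b, the cytokine BAFF on which B cells depend for survival, read 559.6, 600.3 and 566 in cellulose mice 1 to 3 and 449, 334.5 and 363 in garlic mice 1 to 3. The 3 cellulose mice differed little (575 ± 21.8) and all lay above garlic mouse 1, the highest of the garlic mice (382 ± 59.6), for a ratio of 1.51. Ccl8, a chemokine that attracts leukocytes, gave 436, 433 and 716 in cellulose mice 1 to 3 and 126, 343 and 363 in garlic mice 1 to 3. Cellulose mouse 3 was the highest and garlic mouse 1 the lowest, so the mean ratio of 1.90 came with a wide spread (528 ± 162 against 277 ± 131). P2ry10b, a G protein-coupled receptor gene, ranged from 343 to 419 in the cellulose mice and from 186 to 239 in the garlic mice (ratio 1.75). Cpne5, a calcium-dependent membrane-binding protein of the copine family, ranged from 326 to 492 and from 181 to 267 (ratio 1.75). Endou, an endoribonuclease, ranged from 316 to 406 and from 204.5 to 276 (ratio 1.51).

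**Figure D2:**
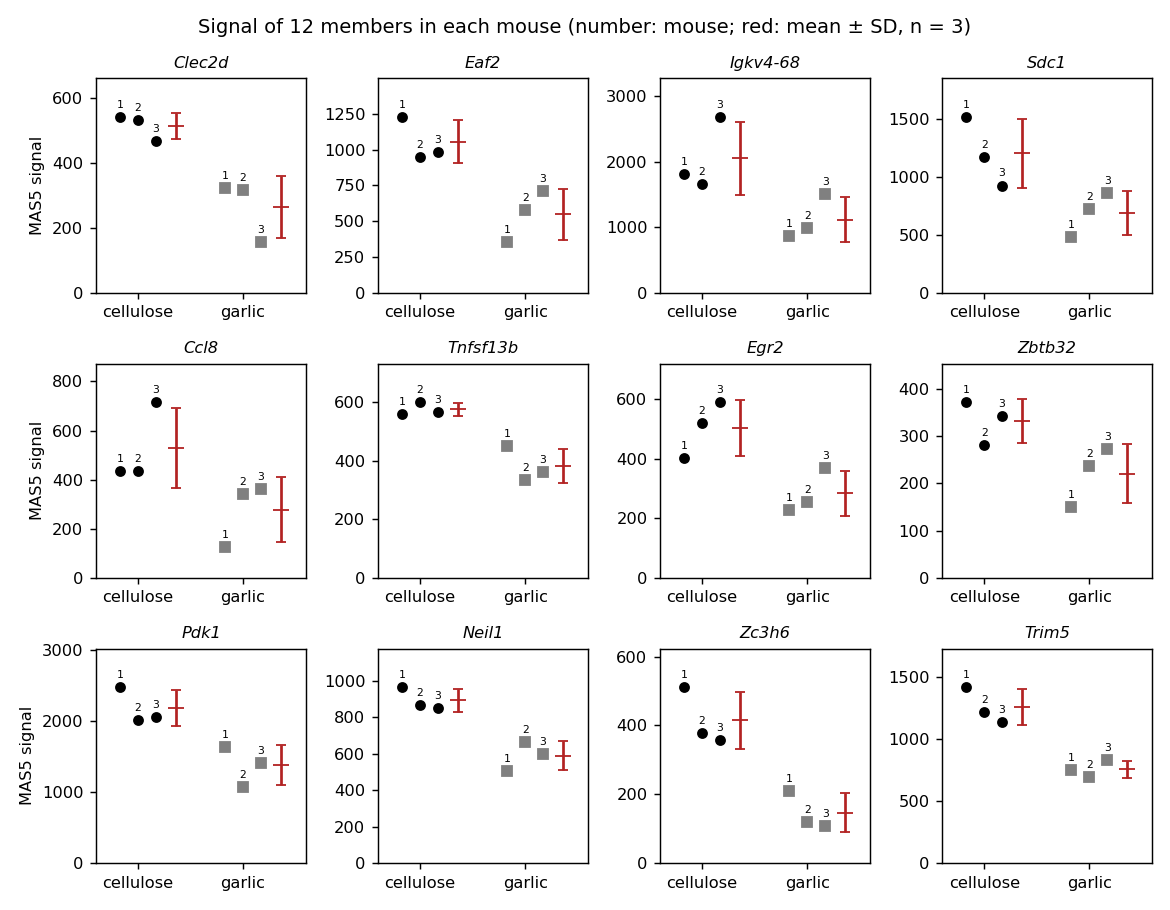
MAS5 signal (linear y axes starting at 0) of 12 members in each mouse, with the cellulose group in black circles, the garlic group in gray squares, the mouse number beside each point, and the mean ± SD (n = 3) in red. In Eaf2, Sdc1 and Zbtb32 garlic mouse 1 is lowest and garlic mouse 3 highest of its group, whereas in Zc3h6 and Clec2d garlic mouse 3 is lowest.

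Marker lists for the B lineage were set beside these members, with genes at a mean signal of 200 or more. Sdc1 was the only member among the 11 plasma cell genes. All 11 had a lower mean in the garlic group, with a median log2 difference of -0.29 against -0.02 over all 9795 genes, but only Sdc1 had groups that did not overlap. The 3 others with the highest signal were Jchain, which links antibody polymers, Xbp1, a regulator of the secretory apparatus, and the protease inhibitor Slpi, with ratios of 1.09, 1.15 and 1.08. The list's median lay at -0.45, -0.27 and -0.06 in garlic mice 1, 2 and 3 relative to the cellulose mean, so that garlic mouse 3 stood close to the controls. Derl3, chosen here after its values were seen, acts in the disposal of misfolded secretory proteins and shows this spread, with 1106, 1039.7 and 1118 in cellulose mice 1 to 3 and 516, 784 and 1109.8 in garlic mice 1 to 3.

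The germinal center list went the same way without holding a member. All 6 of its genes at sufficient signal had a lower mean in the garlic group (median log2 difference -0.33), and the groups were apart in 1 of them, Basp1. Rgs13, a regulator of G protein signaling that is typical of germinal center B cells and was picked after its values were seen, had a larger ratio than any member but Zc3h6. It read 837, 377 and 524 in cellulose mice 1 to 3 and 158, 231 and 419 in garlic mice 1 to 3, and garlic mouse 3 lay above cellulose mouse 2, which kept it out. Of 16 general B cell genes, 13 had a lower mean, 5 were lower without overlap and 1 higher without overlap (median -0.16), and for 18 T cell genes these counts were 16, 4 and 1 (median -0.13). Over all 9795 genes, 11.0% were lower and 10.3% higher without overlap, and counts of 1 in 11 plasma cell genes or 2 in 15 immunoglobulin genes lie near that share. Among 15 immunoglobulin genes, 10 had a lower mean, and the groups were apart in 2, Igkv4-68 and Ighv14-2. The most strongly read of them did not share this, with ratios of 0.990 for Ighm, 0.828 for Igha and 1.103 for Igkv8-30. None of the tested genes of these 5 lists passed limma's adjusted threshold or that of the analysis of variance. At an unadjusted limma p under 0.05, 3 of 11 plasma cell, 4 of 7 germinal center, 7 of 16 B cell, 1 of 19 T cell and 2 of 17 immunoglobulin genes were lower, where 6.24% of all genes tested were. Higher at that level were 0 plasma cell, 0 germinal center, 0 B cell, 1 T cell and 3 immunoglobulin genes, against 6.89% of all genes tested.

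**Figure D3:**
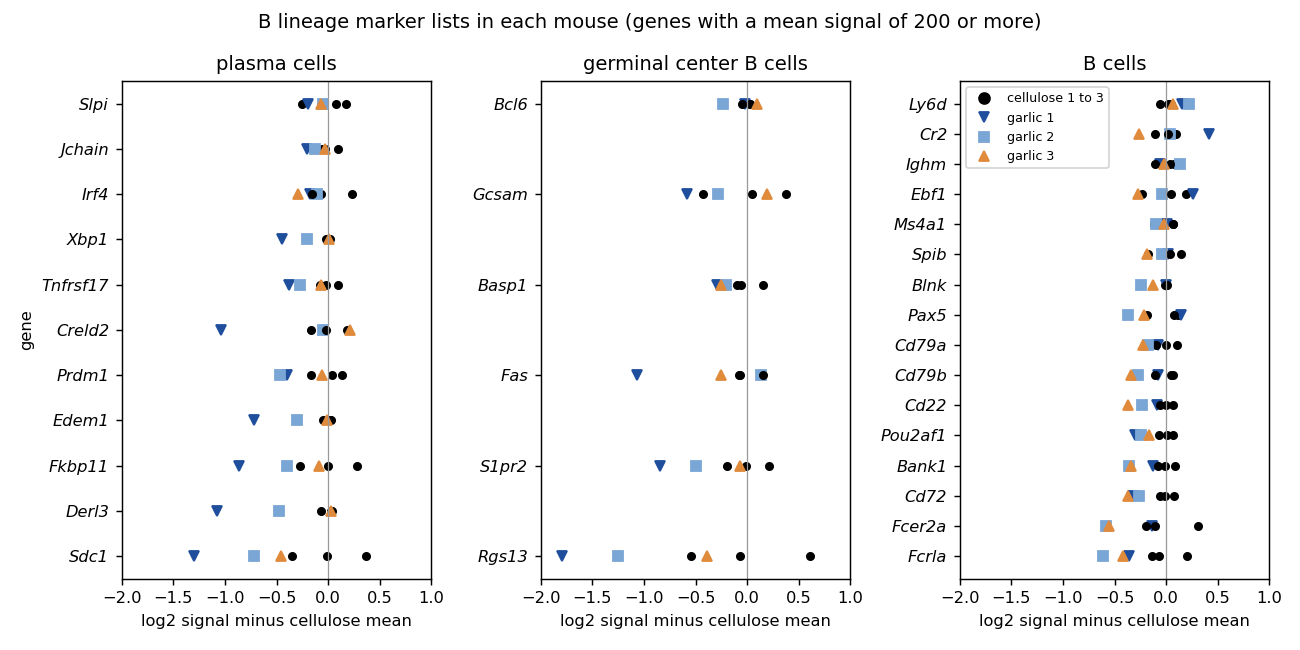
Log2 signal of each mouse minus the mean of the 3 cellulose-fed mice (x axis), for the genes (y axis) of 3 B lineage marker lists with a mean signal of 200 or more; black circles are cellulose mice and colored symbols are garlic mice 1 to 3. In the plasma cell panel garlic mouse 1 lies farthest left and garlic mouse 3 near 0 for most genes, and the B cell panel holds smaller differences.

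Markers of other cells moved with the diet groups at the same time. All 24 erythroid genes had a higher mean in the garlic group (median log2 difference 1.05), 20 of them without overlap, and 10 passed limma's adjusted threshold (0.343% of all genes tested were higher past it). The summed signal of the erythroid list was 71391 to 97390 in the cellulose mice and 119907 to 167469 in the garlic mice. Exocrine pancreas genes, which do not belong to the spleen, summed to 22209 to 169906 in the cellulose mice and to 3119 to 43024 in the garlic mice, with all 20 lower in mean and 0 of 20 free of overlap. Fat tissue genes summed to 12813 to 14260 and to 11102 to 24390. Of 20 red pulp macrophage genes, 19 had a higher mean in the garlic group and 5 were higher without overlap (median log2 difference 0.16), with sums of 120199 to 130744 and of 126855 to 148018. Of 5 granulocyte precursor genes, 4 had a higher mean, 3 were higher and 1 lower without overlap (median 0.92), with sums of 8541 to 9482 and of 9152 to 9909.9. No gene of these lists was at 0 on any array. Without the array of most pancreatic signal in each group (cellulose mouse 1 and garlic mouse 2) the rule found 68 genes, 27 of them members. The part of red cell, pancreas, fat, macrophage and granulocyte precursor RNA in the members' values was not tested.

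Zc3h6, a zinc finger protein of the CCCH type, had the largest ratio of all members. Its signal was 511, 377 and 357 in the cellulose mice and 210.5, 120.0 and 108 in the garlic mice. The lowest cellulose value was 1.69 times the highest garlic value, the widest gap among the members, and the ratio was 2.84 (415 ± 83.9 against 146 ± 56.0). A second probe set of Zc3h6 was dim, at a mean signal of 44.2, and had a ratio of 0.925 with overlapping groups. The other 4 zinc finger members, Zfp788, Zc4h2, Zfp994 and Zfp182, had ratios of 1.501 to 1.64, and in 4 of the 5 garlic mouse 3 was lowest. For the zinc finger genes named Zfp as a whole, 178 at sufficient signal, 106 had a lower and 72 a higher mean, 29 were lower without overlap and 9 higher (11.0% and 10.3% over all 9795 genes), and the median log2 difference was -0.06.

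Promoter sequence was not used by the rule, and 45 of the 58 members had an entry among RefSeq promoters of the mouse build GRCm38.p6, with 67 windows of 250 bases before to 50 bases after a transcription start. A surface protein, a chemokine and the plasma cell marker were taken from the lymphocyte and antigen-presenting cell class, beside the member of largest ratio. The windows of these members are shown here. Each is written 5′ to 3′ on the gene's strand, with any match to the searched motifs in capitals. They lie at chr2:128967152-128967451 for Zc3h6, chr6:129180365-129180664 for Clec2d, chr11:82114935-82115234 for Ccl8 and chr12:8771146-8771445 for Sdc1, all on the plus strand.
Zc3h6: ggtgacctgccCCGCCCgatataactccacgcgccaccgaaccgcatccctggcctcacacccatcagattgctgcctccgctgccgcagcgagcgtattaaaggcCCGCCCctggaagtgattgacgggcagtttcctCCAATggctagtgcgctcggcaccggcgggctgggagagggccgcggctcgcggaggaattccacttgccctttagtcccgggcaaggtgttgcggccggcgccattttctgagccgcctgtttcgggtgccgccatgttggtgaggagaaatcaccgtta
Clec2d: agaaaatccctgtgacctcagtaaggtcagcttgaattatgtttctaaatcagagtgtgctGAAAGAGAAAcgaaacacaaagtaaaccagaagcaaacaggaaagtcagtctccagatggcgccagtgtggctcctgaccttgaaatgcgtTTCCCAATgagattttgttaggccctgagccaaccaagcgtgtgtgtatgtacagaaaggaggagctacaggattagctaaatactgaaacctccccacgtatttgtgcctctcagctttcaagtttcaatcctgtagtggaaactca
Ccl8: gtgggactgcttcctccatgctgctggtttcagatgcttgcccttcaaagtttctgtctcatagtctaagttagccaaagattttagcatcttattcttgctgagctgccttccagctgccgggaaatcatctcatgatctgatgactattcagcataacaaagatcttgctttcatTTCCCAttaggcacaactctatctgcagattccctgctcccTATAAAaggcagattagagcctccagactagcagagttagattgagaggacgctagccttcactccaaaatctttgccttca
Sdc1: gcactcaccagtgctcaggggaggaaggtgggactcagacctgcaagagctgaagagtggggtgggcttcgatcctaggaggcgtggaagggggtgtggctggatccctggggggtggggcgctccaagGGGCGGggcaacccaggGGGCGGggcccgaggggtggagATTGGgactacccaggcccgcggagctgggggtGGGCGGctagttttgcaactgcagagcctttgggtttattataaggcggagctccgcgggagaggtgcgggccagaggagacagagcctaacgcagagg

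Their base composition differed, with 64.0% G and C in Zc3h6 and 66.3% in Sdc1 but 44.3% in Clec2d and 44.7% in Ccl8, around a median of 54.7% over the members' windows and 52.7% over all 32851 windows. Ccl8 has a TATA box (TATAAA) that begins 32 bases before the start. Clec2d holds an interferon-stimulated response element, searched as its consensus of 10 bases, that begins 189 bases before the start, and further down an NF-Y box (CCAAT) that overlaps an RBPJ site (TGGGAA, here on the opposite strand). In Sdc1 there are 3 GC boxes (GGGCGG) and 1 CCAAT box on the opposite strand, and in Zc3h6 2 GC boxes on the opposite strand and 1 CCAAT box. The interferon-stimulated response element was in 5 of the 67 windows (7.46%) against 3.44% of all windows, 1 each for Clec2d, Tnfsf13b, Trim5, Fbxo36 and Zfp994. CCAAT was in 41.8% against 37.4%, GGGCGG in 34.3% against 35.7%, TATAAA in 11.9% against 13.6% and TGGGAA in 20.9% against 25.6%, on either strand. The ETS site CCGGAAG (8.96% against 8.86%), the E-box CACGTG (5.97% against 7.15%), the AP-1 site TGANTCA (5.97% against 7.81%) and the GATA site AGATAA (7.46% against 11.2%) were searched in the same way. So were the cAMP response element TGACGTCA (1.49% against 1.79%), its shorter form TGACGNNA (7.46% against 6.61%), which holds the longer, and the heat shock core GAANNTTC (4.48% against 7.86%). The D-box TTATGTAA, the full heat shock element and the glucocorticoid response element had no match in the members' windows, against 0.938%, 0.603% and 0.475% of all windows. A match of letters is not a binding site, and these shares were not tested.

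Transcription factors formed a class of 4. Egr2, a zinc finger factor that is switched on by antigen receptor signals in lymphocytes, read 402, 519.7 and 590.5 in the cellulose mice and 229, 254 and 369.8 in the garlic mice. The highest garlic value, of mouse 3, was just under the lowest cellulose value, of mouse 1, at a ratio of 1.77 (504 ± 95.3 against 284 ± 75.2). Its relative Egr3 was also apart in the groups, with 2374, 1876 and 1979 in cellulose mice 1 to 3 and 1674, 1199.5 and 1438 in garlic mice 1 to 3, but its ratio of 1.44 was under the threshold. The immediate early genes to which both belong mostly had a higher mean in the garlic group, 17 of 24, with 2 higher and 2 lower without overlap (10.3% and 11.0% over all genes). The 3 others of highest signal, Btg1, Btg2 and Jund, had ratios of 1.12, 0.779 and 1.104 and overlapped.

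Zbtb32, a repressor known from activated lymphocytes, gave 372, 281.5 and 343.5 in cellulose mice 1 to 3 and 151, 236 and 273.5 in garlic mice 1 to 3. The lowest cellulose value was 1.03 times that of garlic mouse 3, and the ratio was 1.51 (332 ± 46.4 against 220.3 ± 62.8). Snai2, a repressor of epithelial genes, gave 378, 378 and 411.5 in cellulose mice 1 to 3 and 269.8, 226 and 264 in garlic mice 1 to 3, with little spread in either group and a ratio of 1.54. Etv5, a factor of the ETS family, gave 656, 691 and 606 in cellulose mice 1 to 3 and 524, 392 and 381 in garlic mice 1 to 3, with garlic mouse 1 nearest to the controls and a ratio of 1.505.

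Ubiquitin ligase and protein clearance genes gave 6 members. Trim5, a RING-type ubiquitin ligase of the tripartite motif family, read 1419, 1222 and 1143 in cellulose mice 1 to 3 and 752, 691 and 829 in garlic mice 1 to 3. Its groups were well apart at a ratio of 1.67 (1261 ± 143 against 757 ± 69.5), and the garlic mice differed little. Fbxo36, an F-box protein that brings substrates to a ligase, read 422, 401 and 396 in cellulose mice 1 to 3 and 379.8, 137.5 and 177 in garlic mice 1 to 3. The lowest cellulose value was only 1.04 times that of garlic mouse 1, so the ratio of 1.76 rested on garlic mice 2 and 3. Glmn, an inhibitor of cullin ligases, gave 243, 283 and 242 in cellulose mice 1 to 3 and 140.2, 130.1 and 161 in garlic mice 1 to 3, at a ratio of 1.78. The others were the endoplasmic reticulum ligase Rnf170 (ratio 1.61), Fbxo46 (1.55) and Zfand1 (1.53), which helps to clear stress granules. Among all 22 F-box genes named Fbxo, 12 had a lower and 10 a higher mean, and 7 were higher without overlap against 2 lower (10.3% and 11.0% over all genes).

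Metabolic enzymes and transporters gave 5 members. Pdk1, the kinase that switches off pyruvate dehydrogenase and so holds pyruvate back from the mitochondrial citric acid cycle, was the member of highest signal, with 2474, 2019 and 2051.5 in cellulose mice 1 to 3 and 1637, 1076 and 1414 in garlic mice 1 to 3. Garlic mouse 2 was lowest, and the ratio was 1.59 (2181.5 ± 254 against 1376 ± 282). Pdk1 stood in a hypoxia list of 15 genes, of which 9 had a lower mean, 3 were lower without overlap (Hif1a, Slc2a1 and Pdk1) and 2 higher (11.0% and 10.3% over all genes). The 3 others of highest signal in it, Ldha, Hif1a and Pgk1, had ratios of 0.997, 1.16 and 1.08. Haghl, a relative of the glyoxalase hydroxyacylglutathione hydrolase, gave 972, 862 and 954 in cellulose mice 1 to 3 and 752, 496 and 439.9 in garlic mice 1 to 3, with a ratio of 1.65 and garlic mouse 1 nearest to the controls. Abcb1b, a P-glycoprotein that pumps drugs out of cells, gave 473, 379 and 354 in cellulose mice 1 to 3 and 181, 261 and 274.5 in garlic mice 1 to 3, here with garlic mouse 1 lowest (ratio 1.68). Noxred1, an NADP-dependent oxidoreductase, and Dpy19l3, which attaches mannose to tryptophan in secreted proteins, had ratios of 1.74 and 1.77.

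DNA repair, chromatin and centromere genes were 3. Neil1, a glycosylase that removes oxidized bases from DNA, read 965, 865 and 851 in cellulose mice 1 to 3 and 507, 665 and 598 in garlic mice 1 to 3. Garlic mouse 1 was lowest and the cellulose mice lay close together, at a ratio of 1.51 (894 ± 62.0 against 590.2 ± 79.2). Wdr5b, a relative of the chromatin protein Wdr5, and Itgb3bp, a centromere protein, had ratios of 1.604 and 1.55. Small GTPase regulators and vesicle traffic genes were 6, with ratios of 1.52 to 1.62. Dennd5b, an activator of Rab GTPases, read 1651.5, 1756 and 1498 in cellulose mice 1 to 3 and 1073, 953 and 1122 in garlic mice 1 to 3 (ratio 1.56). Arhgef3, an exchange factor for RhoA, read 1333, 1103 and 987 in cellulose mice 1 to 3 and 759, 720.5 and 731.5 in garlic mice 1 to 3 (ratio 1.55). In Arhgef3 the garlic mice were nearly equal, with an SD of 19.8 against 176 in the cellulose mice. Rassf6, Rab37, Ift43 and Sft2d3 completed the class, and Rassf6 kept its place in all 6 repeats with 1 array left out.

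The class of secreted factors, receptors and adhesion proteins, as sorted by hand, held 7 members, all dim, with mean signals of 203 to 290. Dsg2, a cadherin of desmosomes, gave 295, 282 and 213 in cellulose mice 1 to 3 and 163, 125 and 143 in garlic mice 1 to 3 (ratio 1.83). Pdgfc, a growth factor for mesenchymal cells, gave 371, 376 and 345 in cellulose mice 1 to 3 and 173, 226 and 249 in garlic mice 1 to 3 (ratio 1.69). The groups of Pdgfc were well apart, with garlic mouse 1 lowest. Kcp, a secreted modulator of BMP signals, the scavenger receptor family member Scara3, the membrane progestin receptor Paqr7, Nrep and Etl4 had ratios of 1.51 to 1.57. Nrep and Etl4 were counted in this class without a claim that they are secreted factors, receptors or adhesion proteins. Garlic mouse 1 alone was the lowest garlic mouse in 3 of these 7 members, and in Etl4 it tied with garlic mouse 2.

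The membrane and coiled-coil proteins Stoml1, Mtx3, Tmem203 and Ccdc122 had ratios of 1.64, 1.52, 1.52 and 1.52. Tmem203 was the most even of them, with 558, 539 and 529 in cellulose mice 1 to 3 and 376, 354 and 338 in garlic mice 1 to 3 and SDs of 14.4 and 19.2. Long noncoding and uncharacterized transcripts gave the remaining 7. Gm8369, annotated as protein coding, read 2096, 1300.5 and 1389.7 in cellulose mice 1 to 3 and 1138.5, 687 and 801 in garlic mice 1 to 3. Garlic mouse 1 came closest to the controls, and the first mouse was highest in both groups (ratio 1.82). Ftx, a long noncoding RNA of the X inactivation center, read 680.5, 429.8 and 483 in cellulose mice 1 to 3 and 351, 276 and 359 in garlic mice 1 to 3 (ratio 1.62). C920006O11Rik, Gm15706, A430093F15Rik, 2410022M11Rik and E130307A14Rik are noncoding by annotation and had ratios of 1.53 to 1.82. By biotype the 58 members were 51 protein-coding genes, 6 long noncoding RNAs and 1 immunoglobulin segment.

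**Figure D4:**
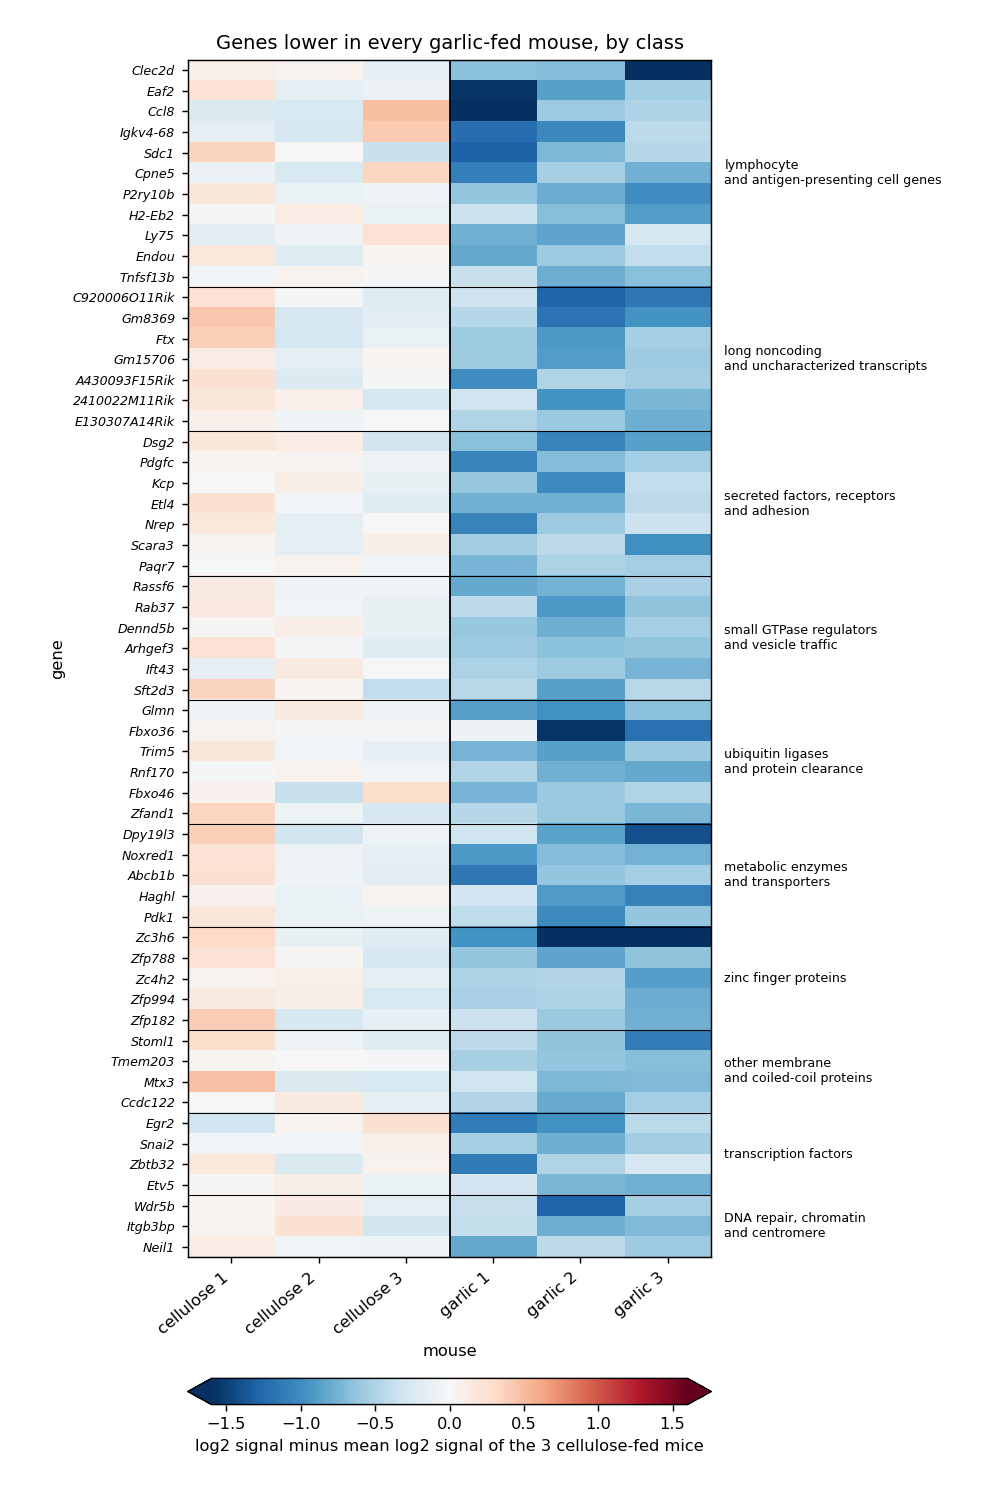
Log2 signal minus the mean log2 signal of the 3 cellulose-fed mice (color, with arrows for values beyond 1.6 in size) for the 58 members (y axis, grouped by class) in each of the 6 mice (x axis). Every garlic value is below 0 because the rule required it; the depth of blue differs between garlic mice from gene to gene, with garlic mouse 1 deepest in Eaf2, Ccl8 and Sdc1 and garlic mouse 3 in Clec2d and Stoml1.

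The mice did not keep 1 order over the members. Cellulose mouse 1 was the highest of its group in 36 members and cellulose mouse 3 the lowest in 34. Garlic mice 1, 2 and 3 were the single lowest of theirs in 17, 23 and 17 members, garlic mice 1 and 2 tied in Etl4, and garlic mouse 1 was the highest in 30. The median over members stood at -0.57, -0.77 and -0.64 in the garlic mice relative to the cellulose mean, where the same median over all 9795 genes was between -0.04 and 0.00. Garlic mouse 1 was the lowest in 6 of the 11 lymphocyte and antigen-presenting cell members.

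Over the 664 genes of 53 cell type and function lists at sufficient signal, 4 were members (0.602%, where members were 0.592% of all 9795 genes), each in 1 list: Sdc1 (plasma cells), Ccl8 (chemokines), Egr2 (immediate early genes) and Pdk1 (hypoxia). The other 54 members were in none. Among 21 chemokine and chemokine receptor genes, 16 had a lower mean in the garlic group, 4 were lower without overlap (Ccl8, Cxcr3, Ccr2 and Cx3cr1) and 1 was higher (Cxcr4), against 11.0% lower and 10.3% higher over all 9795 genes. The ones of highest signal, Cxcl13, Cxcl12 and Ccl5, had ratios of 1.06, 1.05 and 1.17 and overlapped. Heat shock genes were mostly higher, 21 of 22 by their mean and 13 without overlap (10.3% over all genes), and held no member.

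Further probe sets of the same genes gave a second reading, which is not independent since it comes from the same arrays and contrast. There were 54 of them for 28 members, and 30 members had a single probe set. The ratio was above 1 in 42 and at most 1 in 12, with a median of 1.25, and 17 were lower and 1 higher without overlap. Of the 13 with a mean signal of 200 or more, from 8 genes, all 13 had ratios above 1 (1.16 to 2.21), 9 were lower without overlap, and 3 reached 1.5 as well. These 3 belonged to Sdc1, with a ratio of 2.21, and to Haghl, with 1.51 and 2.19. For Sdc1 the probe set with 2.21 read 277, 282 and 292 in the cellulose mice and 58.0, 90.2 and 237 in the garlic mice, again with garlic mouse 1 lowest. A brighter probe set of Sdc1 read 851, 951 and 769 in the cellulose mice and 635, 700 and 564 in the garlic mice. Its groups were apart at a ratio of only 1.35, with garlic mouse 3 lowest. The last probe set of Sdc1, at a mean signal of 167 and a ratio of 1.57, overlapped. The second probe set of Egr2 had a ratio of 1.36 with overlapping groups, and those of Pdk1 had ratios of 1.16 to 1.26. One dim probe set of Dsg2, at a mean signal of 29.0, was higher in every garlic mouse. Groups overlapped in the other, dim probe sets of Snai2 (ratio 1.13), Etv5 (1.03 and 0.9995) and Fbxo36 (0.883). Averaging all probe sets of a gene before the rule kept 36 of the 58 members.

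**Figure D5:**
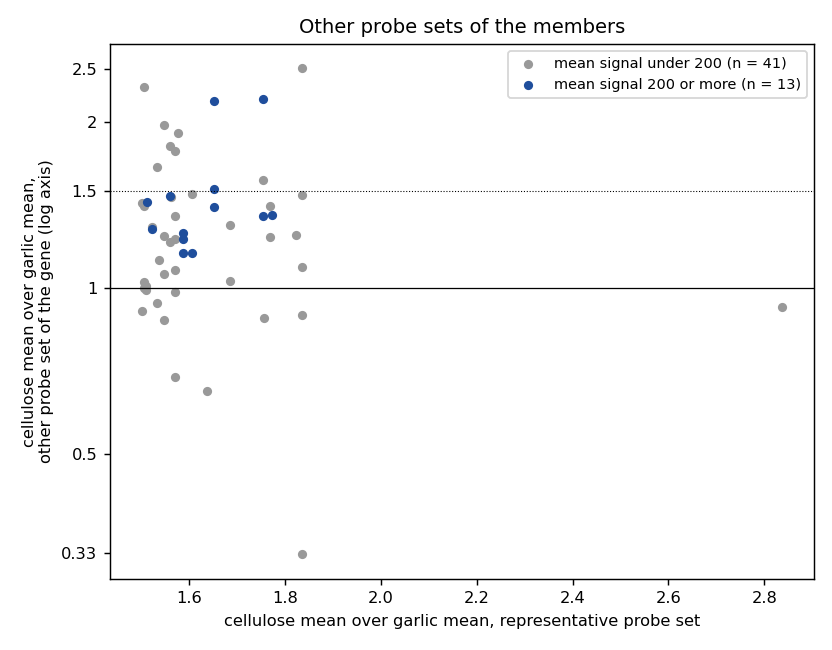
Ratio of cellulose mean over garlic mean for the 54 other probe sets of 28 members (y axis, log scale) against the ratio of the representative probe set (x axis); blue points have a mean signal of 200 or more and gray points less. All 13 blue points lie above 1 and the 12 points at or below 1 are gray; the dotted line marks 1.5.

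The probe sets of Sdc1, Igkv4-68, Snai2 and Nrep have names that mark probes shared with other transcripts, and that of Mtx3 reads several transcripts of like sequence. Their signals, and those of the immunoglobulin segment, may therefore hold RNA of related genes.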

How the data were processed

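Spleen RNA of 3 cellulose-fed and 3 garlic-fed mice was read on Affymetrix arrays, 1 per mouse, grouped by the labels. The deposited values are linear signal intensities that the authors made with MAS5 (submitters' processing notes; version not given in the sources used here), scaled to a common trimmed mean per array, which sets only relative levels. The number of arrays limits the precision. Probe sets were named through GEO's platform annotation: 34945 have 1 gene, and 34741 of these matched RefSeq. Members were found on the linear signals. For limma 3.58.1 (R 4.3.3), 45037 probe sets without controls were floored at the 20th percentile (23.5), taken to log2, filtered at the 40th percentile of the mean and fitted with a variance trend (lmFit, eBayes) on 27022 probe sets, with Benjamini-Hochberg adjustment. The fit and the rule were tested on simulated data. The members and the 53 gene lists were chosen with earlier results of these data known. Named genes were all members, the genes beside each threshold and, of lists that hold a member, up to 3 others of highest signal. Any other gene was named after its values were seen, including those counted as not overlapping. Alternatives were other scalings, thresholds, probe set summaries, a replicate block and arrays left out. Tables and figures were made with Python 3.11.15, pandas 2.3.3 and matplotlib 3.10.9.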

Additional observations from a re-analysis of the deposited data

How the results depend on the processing

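The list of 58 lower genes was 43 under quantile normalization, 29 under median centering and 36 with a gene's probe sets averaged, all of them members. It was 107 and 19 at signal minimums of 100 and 400, 240 and 8 at ratios of 1.3 and 1.8, and 45 to 103 without 1 array (103 without garlic mouse 1, 94 without garlic mouse 3 and 91 without cellulose mouse 2). The 226 higher genes became 90 and 445 at ratios of 1.8 and 1.3, and 178 to 313 without 1 array. Of 638 recomputed member ratios, 15 moved by more than 1 SD and 0 reversed. Leaving out arrays or taking geometric means could not reverse a ratio, because the rule put every garlic value under every cellulose value. For those settings the 0 therefore says nothing.

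By limma, 1 gene was lower and 42 higher past the adjusted threshold. These counts were 2 and 98 under median centering, 0 and 2 without the signal filter, 0 and 0 without the variance trend, and 0 and 0 by the methods' analysis of variance. Without 1 array they ran from 0 to 19 lower (19 without garlic mouse 2) and from 0 to 69 higher (69 without garlic mouse 1; 0 without cellulose mouse 1 or 2). Members past it numbered 1 under median centering (Zc3h6) and 0 to 4 without 1 array (4 without garlic mouse 3, 3 without garlic mouse 1). The main fit did not pair the mice by replicate number. Deviations of mice with the same number correlated at 0.0006416, -0.1758 and 0.0781, and those of mice with different numbers at -0.1541 to 0.1588. With 3 mice per group these values cannot settle whether the numbers share a batch, and the labels do not say. With the replicate block 16 genes were lower and 177 higher, 9 members among the former. The cause of these shifts was not tested. With 3 mice per group, membership changes when 1 array is left out.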
